A study of Caenorhabditis elegans with 2 samples.

Results

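The high mobility group (hmg) genes of Caenorhabditis elegans were 9 of the 19973 protein-coding genes annotated on the nuclear chromosomes: hmg-3 and hmg-4, and the others hmg-1.1, hmg-1.2, hmg-5, hmg-6, hmg-11, hmg-12 and hmg-20. They were taken by name, and all 9 were found in the Ensembl annotation of WBcel235. The window around their starts and the contrast between hmg-3 with hmg-4 and the other 7 genes were chosen by the measured positions, signal values and ranks of TLF-1 peaks, so these values are given as a description, with no test. TLF-1 is a relative of the TATA-binding protein TBP. Its binding was measured by chromatin immunoprecipitation and sequencing (ChIP-seq) in strain OP749, which carries the integrated transgene wgIs749 encoding TLF-1 with a TY1, EGFP and 3xFLAG tag, together with unc-119(+) in an unc-119 (tm4063) background. Whole young adults at 65.5 hours, of both sexes pooled, were synchronised by starving L1 larvae after bleaching, and an antibody against GFP was used for the immunoprecipitation. There was 1 group of 2 biological replicates, both with the tagged transgene. No strain without the tag was analysed here, and no values here tell TLF-1 binding from pull-down without it.

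High mobility group proteins are small or modular chromatin proteins that bind DNA through an HMG box, which bends it, or through short AT hooks that sit in its narrow groove. FACT is a histone chaperone that lets polymerases pass nucleosomes; hmg-3 and hmg-4 both encode the worm counterpart of its SSRP1 subunit, and spt-16 its partner. Of the others, hmg-1.1 and hmg-1.2 encode HMGB-like box proteins, hmg-5 a protein related to the mitochondrial DNA packaging factor TFAM, hmg-11 and hmg-12 AT-hook proteins of the HMGA kind, and hmg-20 a relative of mammalian HMG20 proteins, which work with the CoREST corepressor.

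The DNA under the peaks is shown for hmg-4, the FACT gene whose peak holds several of the words searched, and for the HMGB-like genes, because these regions carry the peaks described below. Each is the stretch around a peak summit of the IDR list, from the RefSeq copy of WBcel235, read 5′ to 3′ on the strand of the gene. That list is the authors' set of peaks kept at a limit on the irreproducible discovery rate (IDR), made from both replicates. The sources used here do not say which comparison set the limit. Capitals mark any of the words searched on both strands: GCGCCA, the core of E2F-like elements; TTTGGCGC, a longer form of that core on the other strand; GCGCATGC, an element of the NRF1 kind; TATAAA, the core of the TATA box; CCAAT, bound by NF-Y; GAGAGA, the repeat read by GAGA factors in flies; and TTCTAGAA, a heat shock element. The hmg-4 stretch is the minus strand of chrIII:7381858-7382058, the hmg-1.2 stretch the plus strand of chrIII:6280259-6280379, ending at the base before the gene, and the hmg-1.1 stretches the plus strand of chrII:14250388-14250588, before the gene, and of chrII:14251513-14251713, past its end.
hmg-4 before the start: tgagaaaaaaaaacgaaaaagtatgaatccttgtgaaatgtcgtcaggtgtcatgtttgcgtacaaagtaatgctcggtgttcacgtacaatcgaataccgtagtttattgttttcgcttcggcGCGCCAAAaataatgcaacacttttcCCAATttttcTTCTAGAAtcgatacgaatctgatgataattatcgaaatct
hmg-1.1 before the start: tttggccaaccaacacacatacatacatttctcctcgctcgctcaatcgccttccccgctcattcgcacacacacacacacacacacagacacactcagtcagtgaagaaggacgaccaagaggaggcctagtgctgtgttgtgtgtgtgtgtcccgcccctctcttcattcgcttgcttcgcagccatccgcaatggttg
hmg-1.1 past the end: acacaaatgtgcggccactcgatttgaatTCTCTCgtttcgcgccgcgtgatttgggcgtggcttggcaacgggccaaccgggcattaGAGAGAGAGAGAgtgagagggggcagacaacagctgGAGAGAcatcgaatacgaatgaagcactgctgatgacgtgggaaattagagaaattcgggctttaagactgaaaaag
hmg-1.2 before the start: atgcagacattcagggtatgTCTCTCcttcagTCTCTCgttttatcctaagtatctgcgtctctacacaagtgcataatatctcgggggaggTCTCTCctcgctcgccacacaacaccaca
In hmg-4 the run in capitals GCGCCAAA holds GCGCCA as written and TTTGGCGC on the opposite strand, overlapping, with CCAAT and TTCTAGAA further along. The stretch before hmg-1.1 holds none of the 7 words and has runs of alternating C and A. The stretch past its end holds GAGAGA 6 times, counting overlaps and both strands, and that before hmg-1.2 holds it 3 times, each on the opposite strand.

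An IDR summit lay in the start window, which ran from 1000 bp before to 500 bp after the annotated start, at 6 of the 9 hmg genes, against 6.98% of all coding genes (1394 of 19973). Both FACT genes had such a summit, as did 4 of the other 7: hmg-1.1, hmg-1.2, hmg-6 and hmg-20. The genes hmg-5, hmg-11 and hmg-12 had none. In the pooled list, called by the authors on both replicates together, 7 hmg genes had a summit in the window, with hmg-12 added, against 40.4% of all coding genes. In the list of replicate 1 it was 8 of 9, against 37.2%, and in that of replicate 2 also 8, against 36.8%. In both, hmg-5 was the gene without a summit. The window and members were fixed with these peaks known, so nothing is read from the counts against those shares. The IDR list held 1880 peaks, the pooled list 28153, replicate 1 24495 and replicate 2 23453. At each hmg gene with an IDR summit, its signal and rank were the same in the pooled list. The IDR and pooled values are thus not separate evidence. Signal values are the authors' own, on a scale that the sources used here do not explain, so they and the ranks they give are compared within a list only.

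**Figure D1:**
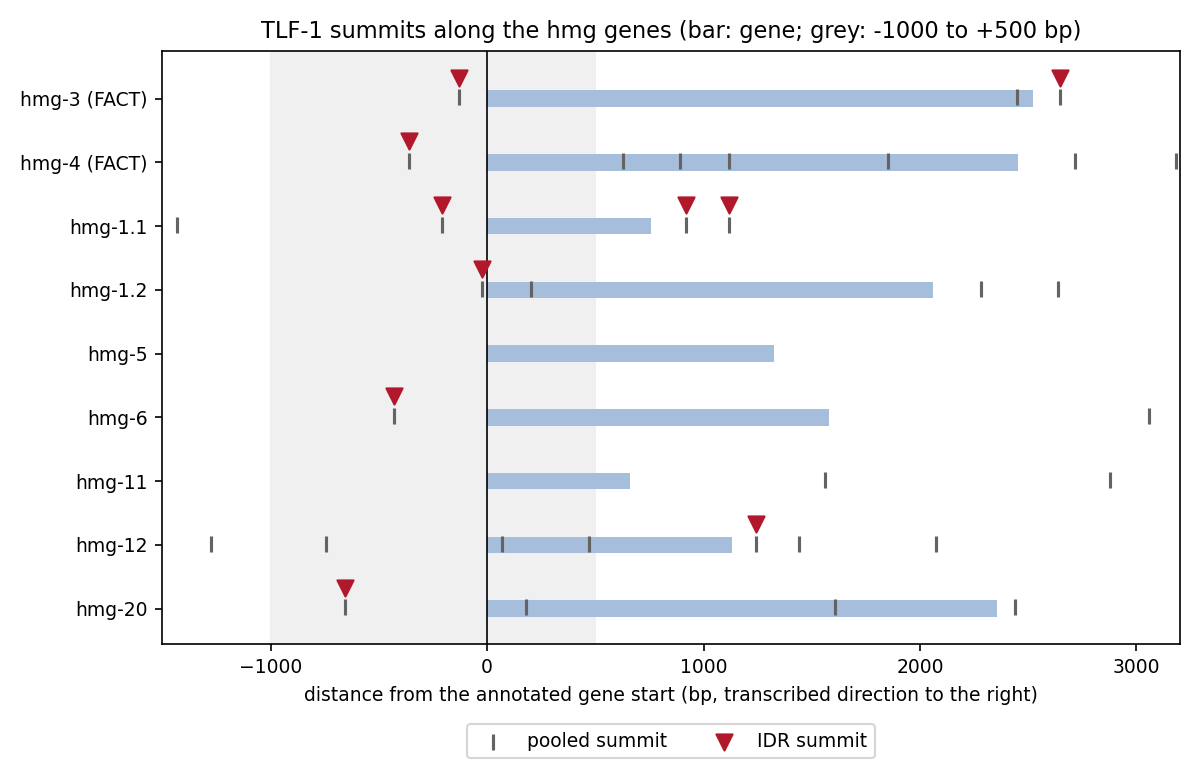
Position of TLF-1 summits along the 9 hmg genes, as distance in bp from the annotated start, with the gene as a bar and the start window in grey. Triangles are IDR summits and ticks pooled summits; hmg-3 and hmg-4 have 1 triangle each in the window, hmg-5 has neither mark, and hmg-3, hmg-1.1 and hmg-12 have triangles within 500 bp past the gene end.

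The FACT gene hmg-3 (WBGene00001973) lies on the minus strand of chromosome I at 5815609 to 5818132. Its IDR summit was 129 bp upstream of the start, at position 5818261, in the 341 bp between hmg-3 and nhr-2, the gene before it on the same strand, and within no annotated gene. The peak spanned 5818059 to 5818462. Its signal was 103.6 at rank 1243 in the IDR and pooled lists, 49.1 at rank 1431 in replicate 1 and 54.4 at rank 1376 in replicate 2. It thus stood among the 1880 strongest peaks of each replicate. The replicate summits were at -173 and -128 bp, 45 bp apart.

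The other FACT gene, hmg-4 (WBGene00001974), lies on the minus strand of chromosome III at 7379143 to 7381596. Its summit was 362 bp upstream, at position 7381958 in a peak from 7381756 to 7382159, between hmg-4 and the divergent gene T20B12.3, from whose start it lay at -157 bp. The 2 genes share this peak, which cannot be assigned to either from position alone. Its signal was 86.8 at rank 1743 of 1880 in the IDR list, 36.7 at rank 2589 in replicate 1 and 46.2 at rank 1965 in replicate 2. The lowest signal in the IDR list was 83.6, so hmg-4 was just inside that list; the strongest pooled summit of a member outside it was at hmg-12, with a signal of 38.3. The hmg-4 summit was not among the 1880 strongest peaks of either replicate. Of the 1394 coding genes with an IDR summit in the window, 30 (2.15%) had a summit among the 1880 strongest of neither replicate, 370 (26.5%) of 1 replicate and 994 (71.3%) of both. Among the 6 hmg genes the numbers were 1 (hmg-4), 2 (hmg-1.1 and hmg-20) and 3 (hmg-3, hmg-1.2 and hmg-6). The replicate summits of hmg-4 were at -363 and -345 bp, 18 bp apart. Its −log10 q-value was 3.07 in the pooled list, where the maximum was 3.51. That maximum was reached at hmg-3, hmg-1.1, hmg-1.2 and hmg-6, and the value at hmg-20 was 3.04.

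The FACT genes are alike in their coding sequence, of 2067 bp in hmg-3 and 2091 bp in hmg-4, with 77.9% identity over their alignment. In the 400 bp before each start 227 positions were identical, 50% of the alignment with its gaps. How much unrelated stretches share was not tested. At hmg-3 the stretch reaches into nhr-2, which ends 341 bp before hmg-3. All 1466 words of 36 bases in the start windows of hmg-3 and hmg-4 occurred once in the genome, as they did for 6 of the other 7 genes. In hmg-12, 1.09% occurred again. The length of the reads is not given in the sources used here, and whether reads were placed uniquely was not tested.

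The FACT genes differed in the DNA just past their ends. A further IDR summit, of signal 90.1 at rank 1618, lay 123 bp past the end of hmg-3, in an untranslated exon of lin-35, which encodes the worm retinoblastoma protein. It had a signal of 39.2 at rank 2288 in replicate 1 and 52.1 at rank 1513 in replicate 2. The ends of lin-35 and hmg-3 overlap by 29 bp on opposite strands. The start window of lin-35, at the far end of that gene, held an IDR summit of signal 189.3 at rank 360, at -171 bp. Past hmg-4, within the next 500 bp, there was no IDR summit, and the pooled summit of rank 6113 was 261 bp beyond the end, in an intron of T20B12.7. The nearest IDR summit beyond hmg-4 was 2533 bp past its end, at rank 761, within no coding gene. Inside hmg-4, 4 pooled summits of ranks 22984 to 26747 lay in coding exons. Inside hmg-3 there was 1, of rank 4834, in an untranslated exon at the 3′ end, -77 bp from it. Its peak, 5815484 to 5815887, overlaps that of the summit past the end, 5815284 to 5815687. The gene for TBP itself, tbp-1, lies beyond T20B12.3 from hmg-4. Its start window had no IDR summit, and its strongest pooled summit ranked 5937, at -5 bp.

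The HMGB-like gene hmg-1.2 (WBGene00001972, chromosome III, 6280380 to 6282438, plus strand) had its summit closest to the start of all 9, at 21 bp upstream. The signal was 123.9 at rank 849 in the IDR and pooled lists, 55.9 at rank 1069 in replicate 1 and 68.6 at rank 858 in replicate 2. All 3 ranks were inside the first 1880. Replicate summits were at -50 and -31 bp. A weaker summit followed inside the gene in 3 lists, at +204 bp in the pooled list (rank 12410), +156 bp in replicate 1 (rank 8401) and +171 bp in replicate 2 (rank 15338). The gene has 3 annotated transcripts, and its strongest summit was the same with any of their starts.

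The other HMGB-like gene, hmg-1.1 (WBGene00001971, chromosome II, 14250695 to 14251450, plus strand), is short, with 95 codons. Its start summit was 207 bp upstream, inside the non-coding RNA gene Y48B6A.21, which lies on the opposite strand. Signal there was 91.3 at rank 1568 in the IDR list, 40.8 at rank 2097 in replicate 1 and 56.7 at rank 1252 in replicate 2, so only replicate 2 had it among its 1880 strongest. Summits of the replicates were at -212 and -301 bp. Larger peaks lay past its end: an IDR summit of signal 360.8 at rank 85 was 163 bp beyond the end, and another of signal 153.8 at rank 555 was 363 bp beyond. The first ranked 104 in replicate 1 and 81 in replicate 2, with signals of 159.4 and 198.5. The peaks of these summits, 14251396 to 14251734 and 14251729 to 14251925, overlap, and whether they mark separate places was not tested. No coding gene covers the summit positions. Both summits were also in the start window of the next gene on that strand, Y54G11A.2, which begins 906 bp past hmg-1.1.

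The TFAM-related gene hmg-5 (WBGene00001975, chromosome IV, 7644895 to 7646219, minus strand) had no summit in its window in any of the 4 lists. The nearest IDR summit on the chromosome was 65.8 kb away. Its start lies 100 bp behind the end of nrde-4, which has the same orientation, so most of its upstream window is inside nrde-4. The start window of nrde-4 had no IDR summit. It had a pooled summit of rank 6168 at -341 bp and a summit of rank 2850 in replicate 1, and none in replicate 2.

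Of the AT-hook genes, hmg-11 (WBGene00001976, chromosome II, 4673085 to 4673746, plus strand) had no IDR or pooled summit in the window. Replicate 1 had a summit at -236 bp with a signal of 13.0 at rank 23046, near the end of its list. Replicate 2 had one 436 bp downstream, with a signal of 19.4 at rank 13422. These lie 672 bp apart and so mark different places. The gene lies wholly within clec-140 on the same strand.

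The second AT-hook gene, hmg-12 (WBGene00001977, chromosome II, 11916513 to 11917643, plus strand), had several weak summits at its start and a strong one past its end. The pooled list had 3 in the window: at +469 bp (signal 38.3, rank 8611), at -744 bp (36.1, rank 9740) and at +71 bp (35.7, rank 9929). The strongest in replicate 1 was at -713 bp (31.7, rank 3583) and in replicate 2 at +439 bp (32.2, rank 4292), so the replicates did not share their strongest position. The summit at -713 bp is 52 bp downstream of the start of vps-15, which runs the other way. The IDR summit past the end of hmg-12 had a signal of 196.3 at rank 341 and was 111 bp beyond the gene, in an untranslated exon of lin-29. It ranked 359 in replicate 1 (signal 94.6) and 332 in replicate 2 (105.2), at 104 and 101 bp past the end.

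The strongest start summit of the 9 genes was that of hmg-6 (WBGene00009827, chromosome I, 14059312 to 14060890, plus strand). It was 430 bp upstream, inside the small nucleolar RNA gene F47G4.9, which lies on the opposite strand. Signal was 135.7 at rank 701 in the IDR list, 72.1 at rank 609 in replicate 1 and 64.0 at rank 972 in replicate 2. All were inside the first 1880. Replicate summits were at -429 and -548 bp, 119 bp apart. Which of the 2 genes the peak belongs to cannot be told from position.

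The HMG20-like gene hmg-20 (WBGene00012209, chromosome I, 12535314 to 12537671, plus strand) had the summit farthest from its start among the 6, at 654 bp upstream, between hmg-20 and W02D9.2, which ends 909 bp before hmg-20 on the same strand. Signal was 89.5 at rank 1646 in the IDR list, 46.2 at rank 1620 in replicate 1 and 41.5 at rank 2485 in replicate 2. Only replicate 1 had it among its 1880 strongest. Replicate summits were at -653 and -765 bp. In a narrower window, ending 500 bp before and 100 bp after the start, hmg-20 had no summit, and the count of hmg genes was 5.

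**Figure D2:**
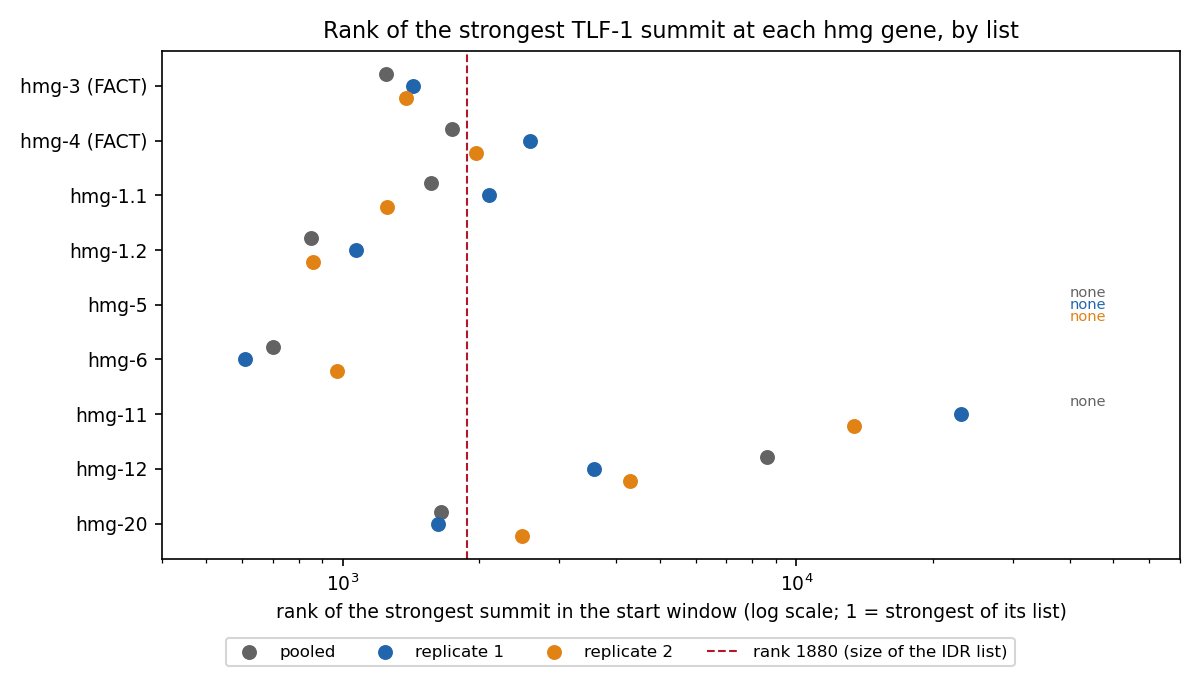
Rank of the strongest summit in the start window of each hmg gene in the pooled list and in each replicate, on a log axis where 1 is the strongest peak of its list; the dashed line is rank 1880. For hmg-3, hmg-1.2 and hmg-6 every point is left of the line, for hmg-4 the points of both replicates are right of it, and hmg-5 has no point.

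Set side by side, the FACT genes did not stand apart in rank from the others. Their pooled ranks were 1243 and 1743, and those of the other 4 genes with an IDR summit ran from 701 to 1646, with a median of 1208.5. The order was hmg-6, hmg-1.2, hmg-3, hmg-1.1, hmg-20 and hmg-4, so the FACT genes were the third and the last of the 6. Neighbours in that order changed places between replicates, so the full order does not hold beyond their spread. In both replicates hmg-6 and hmg-1.2 ranked ahead of hmg-3, hmg-1.1, hmg-20 and hmg-4, and hmg-3 ranked ahead of hmg-4. In replicate 1 hmg-20 ranked ahead of hmg-1.1, and in replicate 2 hmg-1.2 ranked ahead of hmg-6, hmg-1.1 ahead of hmg-3 and hmg-4 ahead of hmg-20. Distances overlapped too, 129 and 362 bp upstream for the FACT genes against 21 to 654 bp for the other 4. All 6 summits were upstream, as were 89.3% of the strongest IDR summits of the 1394 coding genes, whose median was at -232.5 bp with quartiles at -417.75 and -107 bp. An IDR summit was present at 2 of 2 FACT genes against 4 of the other 7, a count that the choice of the contrast used. With the 1880 strongest peaks of either replicate alone it was 1 of 2, without hmg-4, against 3 of 7. Among the 940 strongest IDR peaks it was 0 of 2 against 2 of 7, so the direction of the difference depended on the list.

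Between replicates, the strongest summits were 45 and 18 bp apart at the FACT genes. At the other 4 they were 19 (hmg-1.2), 89 (hmg-1.1), 112 (hmg-20) and 119 bp (hmg-6) apart. Over 1390 coding genes with an IDR summit and a summit in both replicates the median was 24 bp, with quartiles of 10 and 50 bp. The distances at hmg-1.1, hmg-20 and hmg-6 were thus above the upper quartile, and the other 3 were within or below it. At hmg-1.1, hmg-20 and hmg-6, replicate 2 had a weaker summit on the other side of the strongest replicate 1 summit. Replicate 2 summits were at -301 and -98 bp at hmg-1.1, around -212 bp in replicate 1. They were at -765 and -564 bp at hmg-20, around -653 bp, and at -548 and -348 bp at hmg-6, around -429 bp. Whether this split accounts for the distances was not tested.

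**Figure D3:**
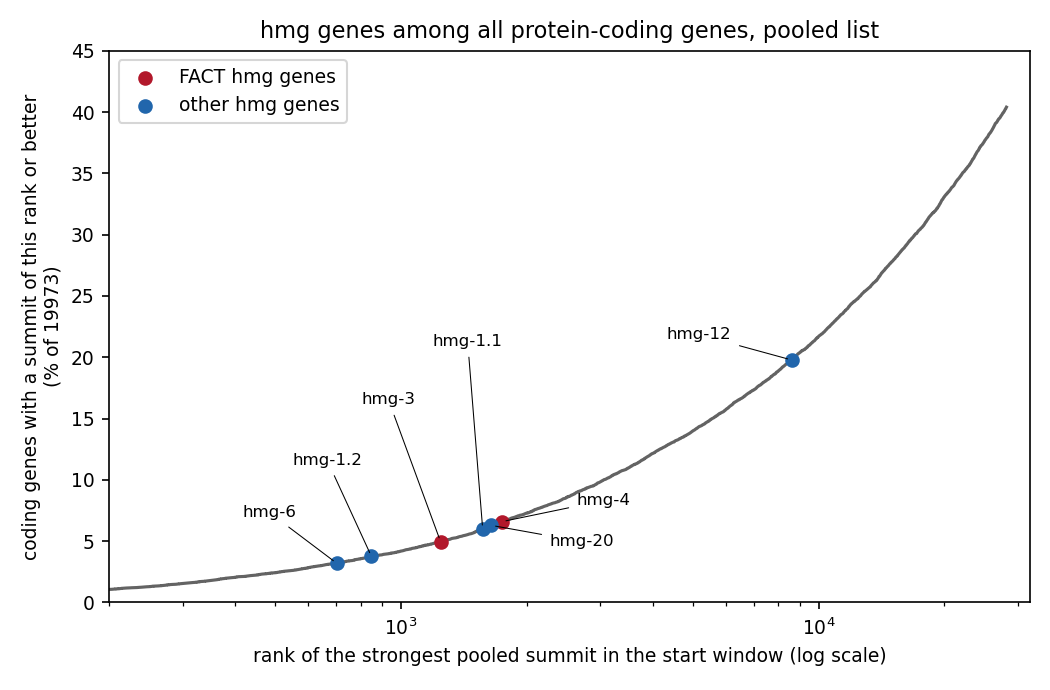
Share of the 19973 coding genes whose strongest pooled summit in the start window has a given rank or a better one, with the 7 hmg genes that have a pooled summit marked. FACT genes (red) lie at 1243 and 1743 on the log rank axis, among the other hmg genes (blue), and hmg-12 lies apart at 8611.

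Among all coding genes, 4.95% had a stronger pooled summit than hmg-3 and 6.58% a stronger one than hmg-4. For the others the shares were 3.19% at hmg-6, 3.75% at hmg-1.2, 5.97% at hmg-1.1, 6.28% at hmg-20 and 19.8% at hmg-12. Across 4925 coding genes with a summit in all 3 of the replicate 1, replicate 2 and pooled lists, the genes most like hmg-3 in rank were cnnm-2 and R04E5.9, with the same 3 ranks as each other (sum of absolute log2 rank differences 0.051), and Y66H1A.5 (0.066). Those most like hmg-4 were T20B12.3, which shares its peak (0), nhr-48 (0.21) and R11D1.13 (0.23). These are likenesses over 3 lists, of which the pooled list is made from the other 2.

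Peaks past the gene end were looked at after their values had been seen. An IDR summit lay within 500 bp past the end of 3 of the 9 genes, hmg-3 among the FACT genes and hmg-1.1 and hmg-12 among the others, against 3.5% of all coding genes. At hmg-1.1 and hmg-12 it was stronger than every start summit of the 9 genes, and at hmg-3 it was weaker than the start summit, 90.1 against 103.6. With the 1880 strongest peaks of replicate 1 alone the count was 2, without hmg-3. Of the 699 coding genes with such a summit, 331 had one that lay in no start window of a coding gene. By that measure hmg-3 and hmg-12 were among the 331, while the summits past hmg-1.1 were in the start window of Y54G11A.2.

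Base composition at the IDR summits was measured over the bases within 100 bp of the summit. G and C made up 37.8% at hmg-3 and 36.3% at hmg-4, against 46.8% at hmg-6 and at hmg-20, 48.3% at hmg-1.2 and 53.7% at hmg-1.1. The groups did not overlap, with 2 genes against 4 and no test. The share of all IDR windows at or below the FACT values was not counted, so nothing is read from this. The pair CG nevertheless occurred 19 times at hmg-3 and 14 times at hmg-4, against 16 at hmg-6, 17 at hmg-20, 9 at hmg-1.2 and 10 at hmg-1.1. The medians over all 1880 IDR summits were 41.3% and 10 pairs, and over equal windows centred 150 bp before all coding starts 33.8% and 6 pairs. Both FACT shares of G and C lie between these medians.

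**Figure D4:**
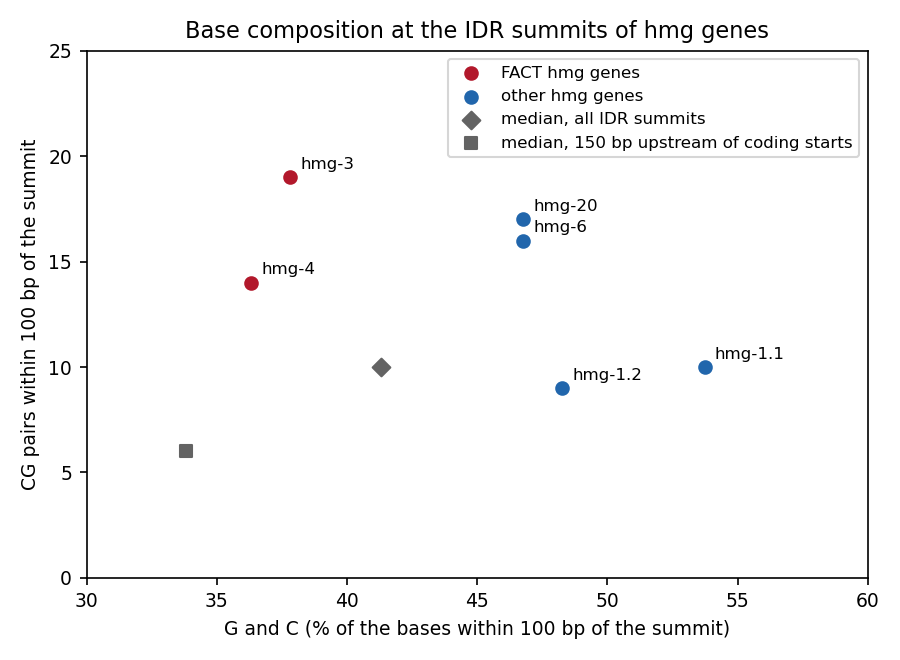
Share of G and C against the number of CG pairs within 100 bp of the IDR summit of 6 hmg genes, with the median of all IDR summits (diamond) and of equal windows centred 150 bp before all coding starts (square). The FACT genes lie left of the other hmg genes, at 37.8% and 36.3%, with 19 and 14 CG pairs. In G and C they lie between the diamond and the square.

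Of the 6 windows, 2 held GCGCCA, those of hmg-4 and hmg-6, a word found in 15.6% of IDR summit windows and 3.59% of the windows upstream of coding starts. The longer E2F-like word TTTGGCGC was in hmg-4 only, against 1.65% of IDR windows and 0.726% of the upstream windows. TTCTAGAA was in hmg-4 (1.17% and 1.54%) and CCAAT also (30.5% and 32.7%). TATAAA, the core of the element that TBP binds, was in hmg-6 only (15.3% and 25.7%). GAGAGA was in hmg-1.2 and hmg-20 (27.8% and 15.7%), and GCGCATGC in none of the 6 (0.798% and 0.265%). The windows of hmg-3 and hmg-1.1 held none of the 7 words, so 4 of 6 held at least 1, against 66.4% of all IDR summit windows. The FACT genes thus shared no word, and a match is a description of letters, not of a site.

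Genes listed as partners or relatives of the hmg genes had IDR summits at 6 of 32, against the same 6.98% of coding genes. The 32, called partner genes below, include 7 other HMG-box genes, listed for that domain. The lists were drawn up with earlier results of these data known. Among 14 histone chaperone and elongation factor genes 3 had one. They were lin-53, which encodes a histone-binding WD40 protein (signal 472.8, rank 42, at -225 bp), nasp-2, which encodes a relative of the histone chaperone NASP (341.7, rank 100, at -207 bp), and unc-85, which encodes an Asf1 histone chaperone (188.8, rank 362, at -241 bp). All 3 were stronger than any hmg start summit. The FACT partner gene spt-16 was not among them: its strongest pooled summit, at -217 bp, had a signal of 50.8 at rank 4824, with ranks 11301 in replicate 1 and 3778 in replicate 2. Of the SSRP1-like genes, hmg-3 was among the 1880 strongest peaks of both replicates and hmg-4 among those of neither. The partner gene spt-16 was also among those of neither. The hmg-4 summit was nearer that cut than the spt-16 summit, at rank 2589 in replicate 1 and 1965 in replicate 2, and was in the IDR list.

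Of 7 other HMG-box genes, 2 had an IDR summit. They were swsn-3, which encodes a subunit of the SWI/SNF remodeller (135.2, rank 705, at -149 bp), and pop-1, which encodes the TCF factor of the Wnt pathway (97.6, rank 1389, at -421 bp). The Sox-type genes sox-2, sox-3, sox-4, sem-2 and egl-13 had none. Of 5 genes for mitochondrial DNA maintenance, 0 had an IDR summit, against 6.98% of all coding genes, and 3 had a pooled one, against 40.4%. With 5 genes, nothing is read from these counts. The strongest pooled summit among them was at mtss-1 (rank 3901). Among 6 genes of the CoREST-like complex, only rcor-1 had an IDR summit, at -545 bp (87.3, rank 1724). That of hmg-20 was at -654 bp, at rank 1646.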

How the data were processed

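TLF-1 ChIP-seq peaks from 2 biological replicates of 1 group were analysed. Per the labels and README files, the assembly was ce11 and the authors' peaks came as 1 list for each replicate, 1 pooled list and the IDR list. Per the README files, replicate and pooled lists were made from the alignments and 1 shared control file. The deposited signal value and −log10 q-value of each peak, and the deposited summit offset, were used as given. The sources used here give no caller, aligner, IDR limit or read depth, so the precision that depth allows is unknown. The labels call the replicates biological.

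Peaks were ranked by signal within a list. Summits were placed against gene starts of Ensembl release 115 (WBcel235, the same assembly). The members and gene lists were chosen with earlier results of these data known, so no test was made. Named genes are the 9 hmg genes, coding genes sharing their start peak, partner genes with an IDR summit (up to 4 a list) and the 3 genes closest in rank to hmg-3 and hmg-4. The genes nrde-4, vps-15, lin-35, lin-29, tbp-1, spt-16, mtss-1 and other neighbours or partners were added after values were seen, as was the window of 500 bp past the gene end. Of 33 partner genes, 32 were annotated. The window search was tested on simulated data. Python 3.11.15, numpy 2.4.6, pandas 2.3.3, Biopython 1.88 and matplotlib 3.10.9 were used.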

Additional observations from a re-analysis of the deposited data

How the results depend on the processing

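The count of hmg genes with an IDR summit was 6, and 5 in the window of 500 bp upstream to 100 bp downstream. It was also 6 with any annotated transcript start or with any base of the peak counted. Both of these settings can only add genes, so neither could have lowered the count. Only hmg-1.2, already counted, has more than 1 annotated transcript. With the 1880 strongest peaks of 1 replicate in place of the IDR list it was 4 without replicate 1 (hmg-3, hmg-1.1, hmg-1.2 and hmg-6) and 4 without replicate 2 (hmg-3, hmg-1.2, hmg-6 and hmg-20). The FACT count was 1 without either replicate, in place of 2, because hmg-4 was lost. In the 940 strongest IDR peaks the count of hmg genes was 2 (hmg-6 and hmg-1.2), with 0 FACT genes and 2 others, and 3.99% of coding genes had a summit. Words in the 6 summit windows numbered 8, and 4 in 100 bp around the summit, a shorter stretch. In all, 7 recomputed values differed from the reported value by over 1.5 times and 50 did not. Some of the 50 could not have differed, such as ranks from any transcript start at genes with 1 annotated transcript. The pooled rank at hmg-20 in the narrower window, where it had no summit, was not among the values compared. These numbers are thus no measure of stability. Alternatives for peaks past the gene end and for partner genes were chosen after seeing the data. No paired analysis was possible because there was 1 group. With no read depth given, no limit from depth can be stated.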

Other observations

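Start windows of 5 hmg genes held a further summit beside the strongest in at least 1 list. The gap between them was 203 bp at hmg-1.1, 200 bp at hmg-6, 202 bp at hmg-1.2 and 201 bp at hmg-20 in replicate 2, and 211 bp at hmg-6 and 206 bp at hmg-1.2 in replicate 1. Other gaps were wider: 225 bp at hmg-1.2 in the pooled list, 836 bp in the pooled list and 908 bp in replicate 1 at hmg-20, and 398 to 1213 bp over the 3 lists at hmg-12. The weaker summits ranked between 6582 and 24094. The windows of hmg-3, hmg-4, hmg-5 and hmg-11 held no further summit in any list.

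The smallest gap between summits was 199 bp in each of the 4 lists. In replicate 1, 1303 gaps were of 199 to 210 bp and 516 of 211 to 222 bp, and in replicate 2 the numbers were 1067 and 388. In the IDR list they were 53 and 2. The most frequent peak width was 420 bp in replicate 1 and 396 bp in replicate 2. Whether a rule of the peak caller sets the gap at the hmg genes was not tested.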
